A study of Homo sapiens with 6 samples.

Results

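The Eph, ephrin, Slit, Robo and netrin genes encode cell surface receptors and ligands that steer moving cells and growing axons, and their transcripts were compared between WM164 melanoma cells carrying a tethered MAFG and MITF dimer and the same cells carrying GFP. Members were chosen by symbol among the protein-coding genes: 14 Eph receptors, 8 ephrins, 4 Robo receptors, 3 Slits, 4 netrins, 2 netrin-G genes, 4 UNC5 receptors, DCC and neogenin (NEO1), together 41 of 58870 genes in the table. WM164 is an established human melanoma line, grown here in RPMI medium with serum, and each of the 2 groups had 3 libraries. The control group overexpressed GFP; the other, called T-MGM, overexpressed the melanoma-specific isoform of MITF joined to MAFG by a flexible linker. By the study's methods the dimer was carried by a lentiviral vector with an EF1α promoter and a blasticidin resistance gene. No label says whether libraries of a group came from separate cultures, so p-values measure the spread between these libraries, which may be technical.

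Total counts were 35057239 to 38738065 in the GFP libraries and 44577774 to 59250663 in the libraries labelled T-MGM, and Pearson's r of log2 normalized counts (counts divided by the size factor of the library) across 12654 genes was 0.991 to 0.994 within groups and 0.971 to 0.974 between them. Genes are not independent replicates in such a correlation. MAFG had 2458 ± 70.3 normalized counts in GFP against 2358 ± 34.9 in T-MGM (SD, n = 3 each), with a log2 fold change of -0.06 and a DESeq2 adjusted p = 0.236, and MITF rose by 0.08 on the log2 scale (adjusted p = 4.8e-07, DESeq2). The groups did not overlap in normalized counts for either gene of the construct. In the libraries labelled T-MGM, MAFG was on the lower side and MITF on the higher side, both by little. In the deposited TPM values, defined below, both were lower. The construct genes therefore do not check the labels, and each direction below takes the labels as given. All 8 melanocyte lineage markers examined were measured, with a summed level of 1301 to 1320 TPM in GFP and 1078 to 1116 TPM in T-MGM libraries. By the test on counts used below MITF, SOX10 and PMEL were higher, by at most 0.11 on the log2 scale. The other 5 were lower, among them DCT at -2.49, MLANA at -0.68 and TYR at -0.35. In mean TPM, by contrast, MITF (138 in GFP, 133 in T-MGM), SOX10 (416 and 403) and PMEL (252 and 237) were lower in T-MGM. TPM is the abundance deposited by the authors, scaled for transcript length and depth. Endothelial markers summed to at most 0.39 TPM in any library. Fibroblast markers summed to 4.11 to 4.64 TPM in GFP and 4.54 to 6.72 TPM in T-MGM, where 3 of 4 tested were higher. LUM held most of the fibroblast sum, with 3.42 to 3.92 TPM in GFP and 3.90 to 5.65 TPM in T-MGM. PDGFRB, 1 of the 3, passed narrowly (adjusted p = 0.0482, DESeq2), with groups that overlapped. The summed level of keratinocyte markers was 20.4 to 21.9 TPM in GFP and 19.6 to 21.3 TPM in T-MGM, and that of blood cell markers 11 to 12.8 and 11.8 to 15.6 TPM, with PTPRC, CD3E and HBB, 3 of the 5 blood cell markers, and KRT5 and KRT1, 2 of the 5 keratinocyte markers, at the floor of at most 3 counts in every library, as was the endothelial CDH5. KRT10 held most of the keratinocyte sum, with 20.37 to 21.85 TPM in GFP and 19.54 to 21.21 TPM in T-MGM. CD68 held most of the blood cell sum, with 10.03 to 11.47 and 11.21 to 15.24 TPM. By the test used below CD68 was higher, at 0.45 on the log2 scale, and LYZ was lower, at -1.32. The part of these marker lists in the results below was not tested. In bulk RNA, fewer cells expressing a gene and less RNA per cell cannot be told apart.

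Eph receptors are tyrosine kinases bound by ephrins on a neighbouring cell, ephrin-A proteins being held in the membrane by a lipid anchor and ephrin-B proteins by a transmembrane segment, and both sides can signal. Slits are secreted proteins that repel cells through Robo receptors, while netrins attract through DCC and neogenin and repel through UNC5 receptors. Cells of the melanocyte lineage derive from the neural crest, whose migration uses several of these cues.

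Members differed widely in level. The 3 most abundant each held most of the transcript in their class, as SLIT3 and NEO1 did in less abundant classes. The first was ROBO1, the widely expressed Slit receptor, with 55.44, 53.74 and 59.29 TPM in GFP replicates 1, 2 and 3 and 66.06, 71.66 and 65.77 TPM in T-MGM replicates 1, 2 and 3, which was 86.2% to 90.6% of all Robo TPM. The next was EPHA3, a receptor for ephrin-A ligands, with 42.41, 42.70 and 43.32 TPM in GFP against 48.94, 50.84 and 49.32 TPM in T-MGM libraries, which was 96.7% to 99% of the Eph-A TPM and 70.2% to 72.0% of all Eph receptor TPM. EFNA5, a ligand of EPHA3, followed with 18.04, 17.76 and 20.12 TPM in GFP against 23.70, 22.30 and 24.29 TPM in T-MGM libraries, or 68.2% to 77.0% of the ephrin-A TPM. In both groups these genes stood in the order ROBO1, EPHA3 and EFNA5, with no overlap between neighbours in that order. In GFP libraries EPHB3 (7.92 ± 0.23 TPM) and EPHB4 (7.80 ± 0.57 TPM) came next and overlapped, ahead of ROBO2 (6.27 ± 0.42 TPM) and NEO1 (5.04 ± 0.78 TPM; SD, n = 3 each). In T-MGM libraries NEO1, at 10.9 ± 0.52 TPM (SD, n = 3), stood 4th, above EPHB3. The secreted ligands were scarce, the 3 Slits together reaching 0.88 to 1.61 TPM and the 4 netrins 0.17 to 0.71 TPM in any library, and so were the UNC5 receptors, with 0.03 to 0.15 TPM. How many reads each level rests on is given with the single genes below.

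**Figure D1:**
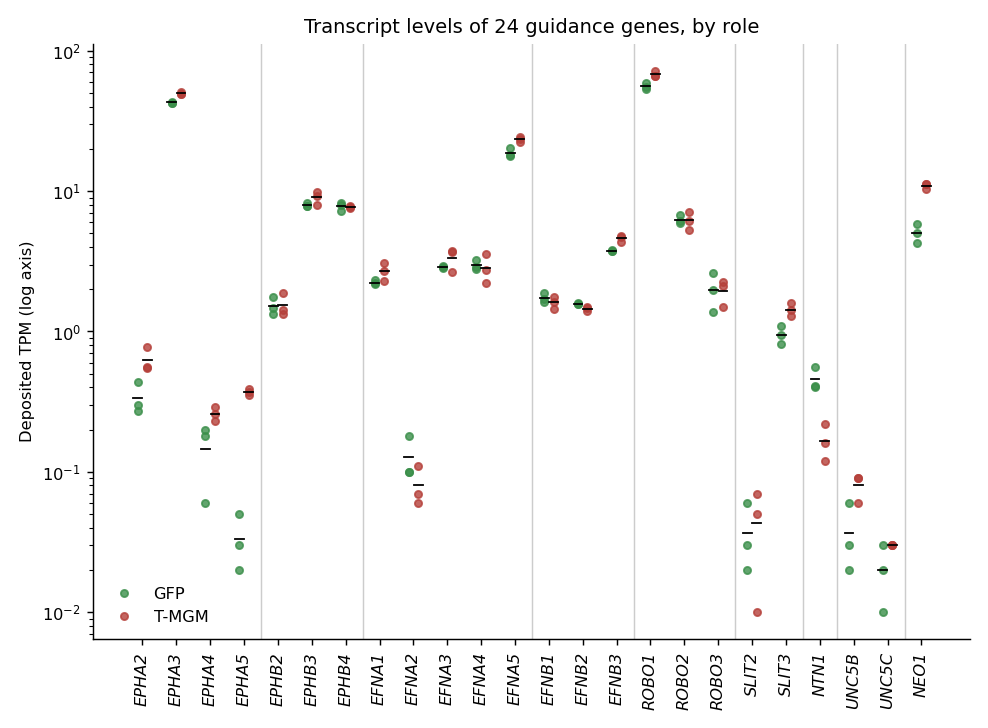
Deposited TPM (log axis) of the 24 measured members, by role from Eph-A receptors at the left to neogenin at the right; points are libraries, green for GFP and red for T-MGM, and black bars are group means (n = 3). ROBO1, EPHA3 and EFNA5 lie above 17 TPM in every library, and the points of EPHA5, NEO1 and NTN1 separate by group.

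Not every member could be measured. EPHA6, EPHA7, EPHA8, NTN4 and DCC had at most 3 counts in every library, a floor that corresponds to 0.0506 to 0.0856 CPM. DCC, the best known attractive netrin receptor, had 0, 0 and 3 counts in GFP and 0 in each T-MGM library. A further 12 members, EPHA1, EPHA10, EPHB1, EPHB6, ROBO4, SLIT1, NTN3, NTN5, NTNG1, NTNG2, UNC5A and UNC5D, averaged under 10 normalized counts and get no fold change here. The highest of the 12 were EPHB6, a receptor without kinase activity, with 5, 3 and 7 counts in GFP against 9, 11 and 31 in T-MGM, and EPHB1, with 7, 5 and 6 counts in GFP against 0, 16 and 10 in T-MGM. ROBO4, the endothelial Robo, had 2 to 8 counts in any library. The other 24 members are called measured. The floor covers counting error alone, as reads lacking molecular identifiers do not each stand for 1 molecule.

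The difference between the labelled groups in these genes was then addressed with DESeq2, fitted on the counts of all genes with the group as the only term. Fold changes are T-MGM over GFP. DESeq2 gave an adjusted p to 30 of the 41 members. Of these, 5 passed, with an adjusted p at or under 0.05 and a fold change over 2, or 16.7%, where 4.63% of all genes tested and 4.97% of protein-coding genes tested did so; EPHA5, NEO1, UNC5B and EPHA4 were higher in the libraries labelled T-MGM and NTN1 was lower. By direction, 3.26% of all genes and 3.84% of protein-coding genes were higher, and 1.36% and 1.13% were lower. By the adjusted p alone 15 of the 30 passed, a share close to the 49.4% of protein-coding genes that did (38.4% of all genes). Of these 15, 14 were higher and 1 was lower, whereas 24.7% of protein-coding genes (19.2% of all genes) passed in each direction. The groups stood apart, with no overlap of normalized counts, in 15 of the 30, where 56.8% of protein-coding genes and 46.8% of all genes did so. The median log2 fold change over the 30 tested members was 0.33, and that of 12654 genes averaging 50 or more normalized counts was -0.01. Among the 24 measured members 21 had a positive log2 fold change in counts, but 6 of these, EPHB4, EFNA4, EFNB1, EFNB2, ROBO2 and ROBO3, had a negative one in the deposited TPM values, in which the median gene lay at -0.13.

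**Figure D2:**
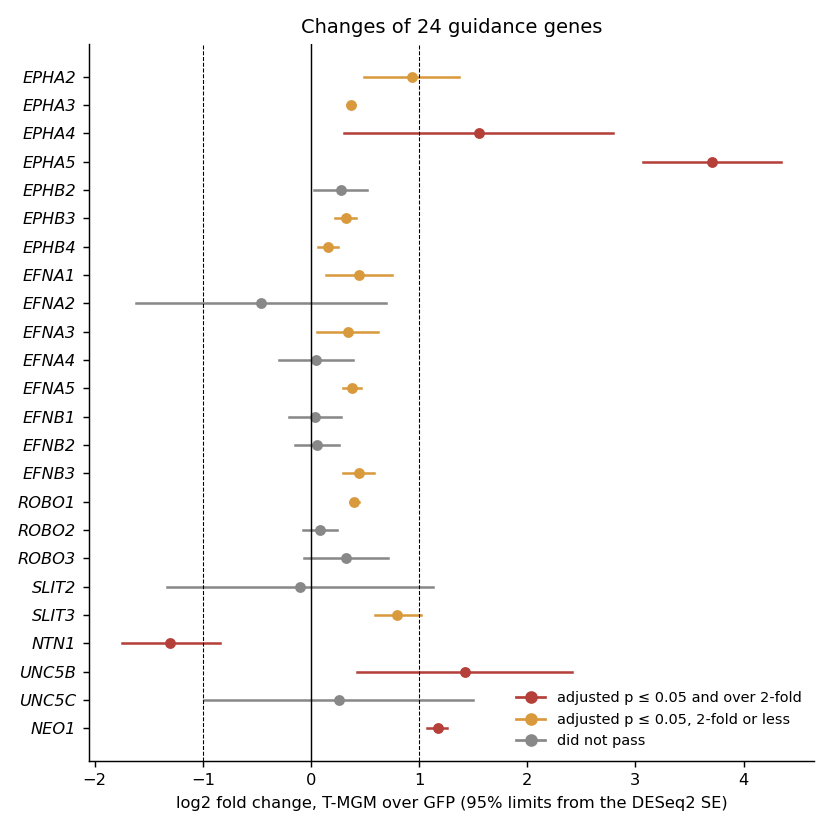
Log2 fold change of T-MGM over GFP for the 24 measured members, with bars for the 95% limits from the DESeq2 SE (3 libraries a group); dashed lines mark a 2-fold change. EPHA5 lies at 3.71 and NEO1 at 1.17, while NTN1 at -1.30 is the only member below 0 whose limits leave out 0; EPHB4, at 0.16 in counts, was not higher in TPM.

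The largest change belonged to EPHA5 (ENSG00000145242.13; chr4:65319563-65670495, minus strand, GRCh38), a kinase receptor for ephrin-A ligands known mostly from the nervous system. Its promoter window, 250 bases before to 50 after an annotated start at chr4:65670440-65670739, is shown with that of NEO1 (chr15:73051652-73051951, plus strand) because these 2 members gave the largest statistics among those changed over 2-fold. Windows of EFNA5 (chr5:107670888-107671187, minus strand) and ROBO1 (chr3:79767949-79768248, minus strand) are also shown. These are 2 abundant members that rose by less and whose printed windows hold a match. Sequences are from RefSeq on GRCh38.p14, 5′ to 3′ on the strand of the gene, and capitals mark a match to a searched motif.
EPHA5: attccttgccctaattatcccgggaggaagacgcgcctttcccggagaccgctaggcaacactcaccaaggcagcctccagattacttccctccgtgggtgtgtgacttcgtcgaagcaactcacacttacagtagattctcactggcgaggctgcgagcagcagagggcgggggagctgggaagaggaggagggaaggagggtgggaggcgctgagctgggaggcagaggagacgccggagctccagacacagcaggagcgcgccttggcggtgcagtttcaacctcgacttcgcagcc
NEO1: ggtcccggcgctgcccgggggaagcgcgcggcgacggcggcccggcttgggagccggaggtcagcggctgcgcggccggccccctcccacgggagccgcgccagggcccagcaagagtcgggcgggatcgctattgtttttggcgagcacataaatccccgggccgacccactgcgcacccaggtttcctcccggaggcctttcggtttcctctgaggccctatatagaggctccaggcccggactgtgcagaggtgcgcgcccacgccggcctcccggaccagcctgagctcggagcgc
EFNA5: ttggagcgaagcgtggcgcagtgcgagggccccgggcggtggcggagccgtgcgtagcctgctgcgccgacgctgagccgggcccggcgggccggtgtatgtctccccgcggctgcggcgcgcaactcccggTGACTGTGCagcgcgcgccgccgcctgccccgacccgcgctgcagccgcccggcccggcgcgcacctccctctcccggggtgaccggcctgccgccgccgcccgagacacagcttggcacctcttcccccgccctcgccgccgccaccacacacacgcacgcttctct
ROBO1: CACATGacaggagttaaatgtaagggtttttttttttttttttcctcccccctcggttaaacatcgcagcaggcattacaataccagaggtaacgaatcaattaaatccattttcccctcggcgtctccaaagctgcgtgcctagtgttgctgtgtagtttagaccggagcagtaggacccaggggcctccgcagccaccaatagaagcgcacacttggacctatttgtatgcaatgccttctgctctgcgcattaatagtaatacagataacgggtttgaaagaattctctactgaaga
Motifs were searched on both strands. CACGTG and CATGTG are E-box forms that MITF binds, and TGACTCA is the core bound by AP-1. TGACNNNGC is bound by a small MAF with a CNC partner. A TGACNNNGC site can contain TGACTCA, so the shares of these 2 motifs are not exclusive. The capitals in EFNA5 match TGACNNNGC at 118 bases before the start, and those in ROBO1 are CATGTG read on the other strand, 250 bases before it. Windows were given for 34 of the 41 members, 47 windows in all. NTN1 and UNC5B, which also changed over 2-fold, had no window and were not searched. The windows of EPHA5, NEO1 and EPHA4 held none of these letters. Nor did that of EPHA3, more abundant than EFNA5, or the other window of ROBO1 (chr3:79019410-79019709). Among the 47 windows 1 held CACGTG (EPHA8), 2 held CATGTG (EPHB6 and ROBO1), none held TGACTCA and 7 held TGACNNNGC (EFNA1, EFNA4, EFNA5, EFNB2, EPHA7, SLIT1 and SLIT2). As shares of the 47 windows these were 2.13%, 4.26%, 0% and 14.9%. In the same order, the 22199 windows of protein-coding genes held 8.34%, 8.93%, 4.01% and 13.8%. All 35116 windows of the table held 7.26%, 11.1%, 4.95% and 13.3%. A match is a description of the letters and not of binding.

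EPHA5 had 6, 11 and 13 counts in GFP against 151, 153 and 217 counts in T-MGM replicates 1 to 3, or 7.19, 11.9 and 14.8 against 138, 149 and 160 normalized counts. Every T-MGM library lay far above every GFP library. The log2 fold change was 3.71 ± 0.33 (SE; adjusted p = 1.97e-28, DESeq2), a 13.1-fold rise with 95% limits of 8.40 and 20.5. Even so the level reached was low, 0.35, 0.39 and 0.37 TPM in T-MGM against 0.02, 0.03 and 0.05 TPM in GFP libraries. The antisense gene EPHA5-AS1 covers 535 exon bases of EPHA5 on the other strand. EPHA5-AS1 itself had 0 counts in each GFP library and 4, 4 and 3 counts in T-MGM libraries. The kit in the labels keeps no strand while the kit in the methods does, so reads in the shared bases cannot be assigned with certainty.

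EPHA4, which binds both ephrin-A and ephrin-B ligands, was also higher, on few reads: 8, 6 and 4 counts in GFP against 15, 14 and 44 in T-MGM libraries. In normalized counts these were 9.59, 6.50 and 4.57 against 13.7, 13.7 and 32.5, so the groups did not overlap and T-MGM replicate 3 stood above the rest. The log2 fold change of 1.55 ± 0.63 (SE; adjusted p = 0.0382, DESeq2) no longer passed without T-MGM replicate 3 (0.99, adjusted p = 0.374), without GFP replicate 2 (1.51, adjusted p = 0.101) or without GFP replicate 3 (1.33, adjusted p = 0.137). An unnamed gene on the opposite strand shares 353 exon bases with EPHA4.

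The abundant EPHA3 rose by little, but evenly. Its normalized counts were 11665, 11636 and 11789 in GFP against 14763, 15308 and 15284 in T-MGM libraries. The groups did not overlap, and the log2 fold change was 0.37 ± 0.02 (SE; adjusted p = 1.96e-82, DESeq2), a 1.29-fold difference with limits of 1.26 and 1.33; on the log2(TPM + 1) scale it was 0.21 and passed (limma, adjusted p = 0.00193). EPHA2, a receptor best known for binding ephrin-A1 and studied in many carcinomas, had 58.8, 60.6 and 52.5 normalized counts in GFP against 100, 104 and 122 in T-MGM libraries. The lowest T-MGM library exceeded the highest GFP library, and EPHA2 rose by 0.93 ± 0.22 on the log2 scale (SE; adjusted p = 1.37e-04, DESeq2), which is 1.91-fold with limits of 1.41 and 2.58, although EPHA2 did not pass in 3 alternative fits to log2 of the deposited TPM values (limma, adjusted p = 0.0716 to 0.139). Together the Eph-A receptors summed to 43.4 ± 0.41 TPM in GFP against 51.1 ± 1.33 TPM in T-MGM (SD, n = 3 each), nearly all of it EPHA3.

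**Figure D3:**
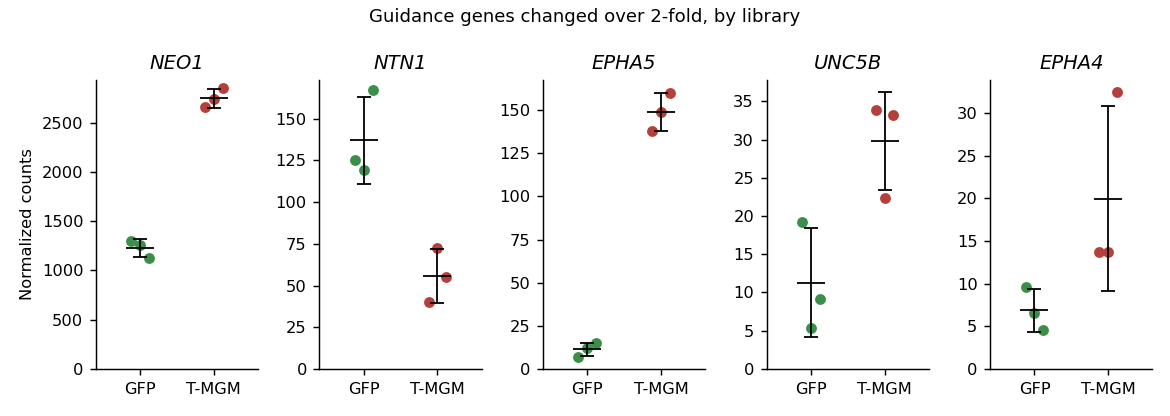
Normalized counts by library (linear axes from 0) of the 5 members that passed the adjusted p and changed over 2-fold; points are libraries, the wide bar is the mean and the error bar 1 SD (n = 3). EPHA5, NEO1 and NTN1 separate by wide gaps, whereas UNC5B and EPHA4 rest on at most 45 reads in any library.

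Eph-B receptors changed less. EPHB3, which sorts epithelial cells in the intestine, had 1307, 1383 and 1401 normalized counts in GFP against 1656, 1676 and 1783 in T-MGM libraries. The groups did not overlap, and the log2 fold change was 0.32 ± 0.05 (SE; adjusted p = 1.36e-09, DESeq2). With offsets for GC content and length it was 0.18 (adjusted p = 0.00195, DESeq2), and in the 3 TPM fits EPHB3 did not pass (limma, adjusted p = 0.134 to 0.285), its TPM values overlapping between groups. EPHB4, the receptor of ephrin-B2 in veins, had 1549, 1477 and 1595 normalized counts in GFP against 1656, 1741 and 1751 in T-MGM libraries, a log2 fold change of 0.16 ± 0.05 (SE; adjusted p = 0.00406, DESeq2) that was -0.02 in the deposited TPM values and 0.0086 with offsets for GC content and length (adjusted p = 0.924, DESeq2). The EPHB4 groups did not overlap, but the difference was small and depended on the scaling; without GFP replicate 2 it was 0.13 (adjusted p = 0.0648, DESeq2). EPHB2 had 248, 246 and 286 normalized counts in GFP against 282, 364 and 300 in T-MGM libraries, which overlapped; its log2 fold change of 0.28, with 95% limits of 0.03 and 0.52 before adjustment, did not pass (adjusted p = 0.0706, DESeq2), though it did without GFP replicate 3 (0.35, adjusted p = 0.0468) or T-MGM replicate 1 (0.35, adjusted p = 0.0429).

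Of the 5 ephrin-A ligands 3 rose, none by 2-fold. EFNA5, whose promoter window is printed above, had 1952, 1807 and 1885 normalized counts in GFP against 2375, 2465 and 2495 in T-MGM libraries. Every T-MGM library was above every GFP library, and the log2 fold change was 0.38 ± 0.04 (SE; adjusted p = 4.36e-18, DESeq2) beside 0.37 for its receptor EPHA3. EFNA1, the ligand of EPHA2, had 148 ± 10.7 normalized counts in GFP against 202 ± 26.7 in T-MGM (SD, n = 3 each), with a log2 fold change of 0.44 (adjusted p = 0.0137, DESeq2). EFNA1 did not pass without GFP replicate 1 (adjusted p = 0.0766, DESeq2), T-MGM replicate 1 (0.0567) or T-MGM replicate 2 (0.121). Nor did it pass with the GC and length offsets (0.0604) or in the 3 TPM fits (limma, 0.175 to 0.391). With the replicate number as a block the adjusted p was 0.0621, and 0.171 with the offsets added (DESeq2). Apart from the test against a log2 change of 1, EFNA1 did not pass in 9 of 16 alternatives. EFNA3 passed narrowly at 0.34 (adjusted p = 0.0462, DESeq2), with groups that overlapped. With 1 library left out it passed only without T-MGM replicate 3, the adjusted p being 0.092 to 0.287 without any other (DESeq2). The adjusted p was 0.0458 with edgeR, and with DESeq2 it was 0.0386 with TMM factors and 0.339 with the GC and length offsets. Leaving aside the test against a log2 change of 1, EFNA3 did not pass in 13 of 16 alternatives. EFNA4 and EFNA2 did not pass, at 0.04 (95% limits -0.30 and 0.39) and -0.46 (limits -1.62 and 0.69). EFNA3 and EFNA4 share 853 and 189 exon bases with an annotated read-through gene, EFNA4-EFNA3.

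EFNB3, a transmembrane ligand known from the midline of the nervous system, was the only ephrin-B gene that passed. It had 585, 587 and 588 normalized counts in GFP against 813, 821 and 758 in T-MGM libraries. These groups were far apart for their spread, with a log2 fold change of 0.44 ± 0.07 (SE; adjusted p = 1.52e-08, DESeq2) that was 0.24 on the log2(TPM + 1) scale and there did not pass without a TPM minimum (limma, adjusted p = 0.0641). EFNB1 and EFNB2 lay at 0.04 (limits -0.20 and 0.28) and 0.06 (limits -0.15 and 0.26), and neither passed. For EFNB2, 1822 exon bases are shared with a gene on the opposite strand.

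Among the Robo receptors ROBO1 alone passed. Normalized counts of ROBO1 were 11424, 11017 and 11334 in GFP against 14977, 15111 and 14506 in T-MGM libraries, with no overlap. The log2 fold change was 0.40 ± 0.02 (SE; adjusted p = 4.76e-84, DESeq2), or 1.32-fold with limits of 1.28 and 1.36. ROBO2, its neighbour on chromosome 3 and likewise a Slit receptor, had 769 ± 67.7 normalized counts in GFP against 816 ± 67.5 in T-MGM (SD, n = 3 each). The ROBO2 groups overlapped, and its log2 fold change of 0.09 (limits -0.07 and 0.24) did not pass. ROBO3, which in mammals does not bind Slits, had 99.4 ± 15.2 and 125 ± 16.9 normalized counts (SD, n = 3 each), with a log2 fold change of 0.32 (limits -0.06 and 0.71) that did not pass either.

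Position was examined beside these values, a description chosen after the data were seen. The 21 other genes within 10 Mb of ROBO1 that averaged 50 or more normalized counts had a median log2 fold change of 0.10. After offsets for GC content and transcript length they had 0.26, where ROBO1 had 0.45. For ROBO2, the 26 neighbours had 0.08, and with these offsets both the neighbours and ROBO2 lay at 0.17. The 18 neighbours of EPHA3, also on chromosome 3, had -0.16, those of EPHA5 had -0.11 (27 genes), and those of NEO1 had 0.01 (154 genes). ROBO1, EPHA3, EPHA5 and NEO1, picked after they had passed as higher, thus lay above the median of the genes around them. ROBO2, which had not passed, lay at it. This order largely follows from how the members were picked, and the difference was not tested.

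SLIT3 was the most abundant Slit, and it rose. It had 249, 269 and 278 normalized counts in GFP against 419, 513 and 457 in T-MGM libraries. The lowest T-MGM value exceeded the highest GFP value by a wide margin, and the log2 fold change was 0.80 ± 0.11 (SE; adjusted p = 3.47e-12, DESeq2), a 1.74-fold rise with limits of 1.5 and 2.03; on the log2(TPM + 1) scale it was 0.32 and did not pass without a TPM minimum (limma, adjusted p = 0.179). Its level stayed low, at 0.95 ± 0.15 TPM in GFP against 1.43 ± 0.16 TPM in T-MGM (SD, n = 3 each). SLIT2, the Slit most often studied in vessels and axons, had 13, 13 and 8 counts in GFP against 15, 19 and 6 in T-MGM libraries, which overlapped, and its log2 fold change was -0.10 (limits -1.33 and 1.13). Antisense genes share 663 exon bases with SLIT3.

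**Figure D4:**
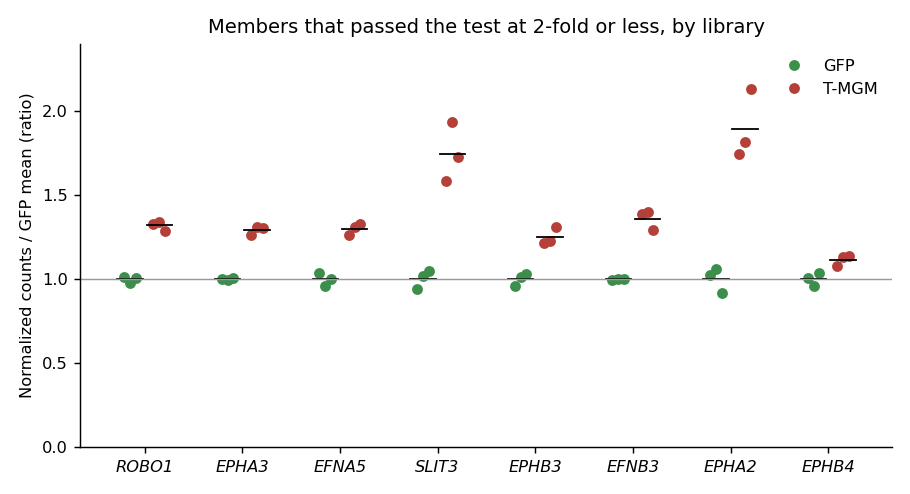
Normalized counts of 8 members that passed the adjusted p at a change of 2-fold or less, each divided by its GFP mean (linear axis from 0); points are libraries and black bars group means (n = 3). The groups of each gene stand apart, with EPHA2 and SLIT3 rising furthest; EPHB4, at the right, was not higher in TPM.

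NTN1, the founding secreted netrin, was the only member that fell. It had 125, 119 and 167 normalized counts in GFP against 40.1, 72.2 and 55.3 in T-MGM libraries. The highest T-MGM library lay below the lowest GFP library. The log2 fold change was -1.30 ± 0.23 (SE; adjusted p = 1.61e-07, DESeq2), which is 2.45-fold lower, and the level went from 0.46 ± 0.09 to 0.17 ± 0.05 TPM (SD, n = 3 each). NTN3 and NTN5, also netrins, and NTNG1 and NTNG2, membrane-anchored relatives that bind other partners, had at most 12 counts in any library.

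NEO1 (ENSG00000067141.17; chr15:73051710-73305205, plus strand, GRCh38) encodes neogenin, a relative of DCC that binds netrins and repulsive guidance molecules. It had 1296, 1259 and 1126 normalized counts in GFP against 2663, 2738 and 2852 in T-MGM libraries. Each T-MGM library held far more than any GFP library. The log2 fold change was 1.17 ± 0.05 (SE; adjusted p = 7.51e-121, DESeq2), a 2.24-fold rise with limits of 2.1 and 2.4. In TPM, NEO1 went from 5.03, 5.83 and 4.27 in GFP to 10.28, 11.21 and 11.15 in T-MGM libraries. With DCC at the floor, NEO1 accounted for at least 99.8% of the summed TPM of this receptor pair. Tested against a 2-fold change instead of none, NEO1 did not pass (adjusted p = 0.0768, DESeq2).

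UNC5B, a repulsive netrin receptor of vessels, had 16, 5 and 8 counts in GFP against 37, 23 and 45 in T-MGM libraries. After scaling these were 19.2, 5.41 and 9.14 against 33.8, 22.4 and 33.2, close but without overlap. The log2 fold change of 1.42 ± 0.50 (SE; adjusted p = 0.0145, DESeq2) did not pass without GFP replicate 2 (adjusted p = 0.111), GFP replicate 3 (0.0652), T-MGM replicate 1 (0.0912) or T-MGM replicate 3 (0.0827). UNC5C, at 0.26 (limits -0.99 and 1.5), did not pass.

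Partners of these receptors were followed through 4 lists of 75 genes, of which 68 were tested. By the adjusted p alone 20 were higher and 21 lower, and in the deposited TPM values (log2 of TPM plus 1, no minimum) 4 were higher and 19 lower; the median log2 fold change over the 68 was -0.02. Among protein-coding genes 24.7% passed in each direction and 49.4% in all, and among all genes 19.2% and 38.4%. In Eph forward signalling 6 genes were higher and 12 lower of 26 tested. The adaptor NCK2 went from 4610 to 3130 mean normalized counts, a log2 fold change of -0.56 ± 0.03 (SE; adjusted p = 8.32e-77, DESeq2), and the phosphatase PTPN1 fell by 0.35 ± 0.02 on the same scale (SE; adjusted p = 6.62e-46, DESeq2). In the same list ARHGEF5, a guanine nucleotide exchange factor, had 8.39, 18.4 and 6.85 normalized counts in GFP against 97.6, 82.9 and 44.3 in T-MGM libraries. These groups did not overlap, and the log2 fold change was 2.72 ± 0.42 (SE; adjusted p = 9.95e-10, DESeq2).

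In ephrin shedding and reverse signalling 3 genes were higher and 1 was lower of 9 tested. The largest Wald statistics there belonged to the cytoskeletal linker TLN1, with a log2 fold change of 0.31, and the scaffold SDCBP, with -0.30; these were not the largest changes. Among Slit and Robo co-receptors and effectors 4 were higher and 4 lower of 16. By Wald statistic, though not by size of change, the first were the heparan sulfate proteoglycan SDC3 at 0.32 and dystroglycan (DAG1) at 0.37 on the log2 scale. Of 17 tested partners of netrins, DCC, neogenin and UNC5 receptors 7 were higher and 4 lower, with the largest Wald statistics for MAGED1 at 0.33 and the latrophilin ADGRL2 at -0.36 on the log2 scale. In that list ABLIM1, an actin-binding LIM protein, had 13.2, 20.6 and 21.7 normalized counts in GFP against 111, 83.9 and 112 in T-MGM libraries. ABLIM1 thus separated by group, with a log2 fold change of 2.47 ± 0.31 (SE; adjusted p = 2.18e-14, DESeq2). ADGRL3, a latrophilin, had 13, 10 and 14 counts in GFP against 0, 0 and 2 in T-MGM libraries, and passed at a DESeq2 adjusted p = 8.09e-04. Over all 4 lists ARHGEF5, ABLIM1 and ADGRL3 were the 3 of 68 that passed with a change over 2-fold, a share near the 4.97% of protein-coding genes and 4.63% of all genes.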

How the data were processed

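RNA of WM164 cells was sequenced in 3 GFP and 3 T-MGM libraries, grouped by their titles. According to the study's methods and processing notes, the authors trimmed reads with cutadapt 1.8.1, aligned them to GRCh38 with STAR 2.7.7a and used featureCounts to count reads with a unique alignment. The deposited counts are raw whole numbers for each library; the annotation release is not given in the sources used here. The authors also deposited TPM values from RSEM 1.3.0, rounded to 2 decimals, which depend on how reads are shared among transcripts.

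Counts were fitted over all genes with DESeq2 1.42.0 in R 4.3.3 (median-of-ratios size factors, 2-sided Wald test, no shrinkage, local dispersion trend, independent filtering at 0.05, Benjamini-Hochberg adjustment over all genes tested), following the study's test and thresholds. In this fit 885 genes passed both thresholds, more than the study reports for the dimer in WM164 cells. The cause of that difference was not tested. Levels were compared between genes only in TPM. Members were named by role; values in every library are given for members changed over 2-fold and the 8 next by Wald statistic, and from each partner list for every gene changed over 2-fold and the 2 with the largest statistic. Members and lists were chosen with earlier results of these data known, and no test was adjusted over a list alone. Positions are those of GENCODE release 44 (GRCh38), where 99.3% of the gene identifiers were found. Each of the 6 columns of both tables belonged to a sample. Alternatives were edgeR 4.0.16 (quasi-likelihood), TMM or total-count scaling, a minimum of 10 counts in 3 libraries, the replicate number as a block, offsets for GC content and length (lowess, span 0.3), each library left out, a test against a log2 change of 1, and limma 3.58.1 on log2 of TPM plus 1 or 0.1, with or without a minimum of 0.5 TPM in 3 libraries. The steps were tested on simulated data.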

Additional observations from a re-analysis of the deposited data

How the results depend on the processing

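The 5 members that passed with a change over 2-fold numbered 5 with edgeR, TMM or total-count scaling, the count minimum and the GC and length offsets, and 3 to 5 when a library was left out. Without GFP replicate 2, GFP replicate 3 or T-MGM replicate 3, EPHA4 and UNC5B no longer passed, and 3 were left. Tested against an absolute log2 change of 1, 1 member (EPHA5) passed with or without the fold threshold, as did 2 partner genes in place of 41. With limma on TPM, 0, 1 and 0 members passed with a change over 2-fold (plus 1, plus 0.1, and plus 1 with no minimum), 6 in each passed the adjusted p alone in place of 15 (EPHA2, EPHB3, EPHB4, EFNA1 and EFNA3 in none of the 3, EPHA4 and UNC5B not in the 1 they entered), 0 partner genes changed over 2-fold in place of 3, and with no minimum 23 partner genes passed. These TPM values put the median gene at -0.13, -0.15 and -0.13 on the log2 scale, and 7 measured members (EPHA4, EPHA5, EFNA2, SLIT2, NTN1, UNC5B and UNC5C) were under the TPM minimum and got no value there. NEO1 lay at 0.98 with a pseudocount of 1 and at 1.10 with 0.1. EPHA5 had 0.41 and NTN1 -0.32 on the log2(TPM + 1) scale, which understates the change of low genes. The cause of these differences was not tested.

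The replicate numbers did not pair the libraries: deviations from the group means of same-numbered libraries correlated at -0.007, -0.058 and 0.029. With the replicate block 4 members passed with a change over 2-fold (EPHA4 did not, adjusted p of 0.13), 12 passed the adjusted p alone and 38 partner genes passed; with the replicate block and the GC and length offsets 3 members did.

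Of 394 refits of 24 members under 17 alternatives, 301 kept their direction and side of the threshold, 60 lost and 2 gained the adjusted p, and 31 changed direction, 3 of them in a member that had passed. That member was EPHB4, at -0.019, -0.021 and -0.019 in the TPM fits, given here as above in the order plus 1, plus 0.1 and plus 1 with no minimum. EFNA4 lay at -0.058, -0.082 and -0.058, EFNB1 at -0.065, -0.10 and -0.065, EFNB2 at -0.067, -0.10 and -0.067, ROBO2 at -0.021, -0.026 and -0.021, ROBO3 at -0.0044 with plus 1 either way, and SLIT2 at 0.009 with no minimum. With total counts, the offsets, and the offsets with the replicate block, EFNA4 had -0.0086, -0.10 and -0.12 and EFNB1 -0.015, -0.086 and -0.084. With a library left out, EFNA4 ranged from -0.14 to 0.2, EFNB1 from -0.026 to 0.11, SLIT2 from -0.53 to 0.32 and UNC5C from -0.048 to 0.72.

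Depth limits the low members: at most 3 counts in a library cannot show a difference, and UNC5B and EPHA4 rest on 4 to 45 reads a library. Measured members had a median GC content of 55.3%, against 48.1% for 12613 genes averaging 50 or more normalized counts. Among the latter, the genes lowest and highest in GC (a decile each) had median log2 fold changes of -0.17 and 0.15. With the GC and length offsets 12 members passed the adjusted p alone, in place of 15.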
